A study of Mus musculus with 13 samples.

Results

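Cortical gene expression was compared between 2 groups of male mice aged 18 months: 4 Grn-/-;GRNtg mice and 4 Grn+/- mice. Grn is the mouse progranulin gene. Grn-/-;GRNtg mice lack both mouse copies and carry GRN, the human progranulin gene, as a transgene. Grn+/- mice keep 1 mouse copy and carry no transgene by their label, so no group of the comparison has the full mouse gene dose. Every gene of the authors' deposited table for this comparison was taken, 17562 genes of the 17562 that any table of the series lists, after 2 rows that name no gene were dropped. The wild-type mice (Grn+/+, 5 mice of the same sex and age) do not enter the contrast. In all 13482 genes that the 3 deposited tables share, the mean normalized counts are the same and the fold changes add up, as in a single fit over all mice. The wild-type mice thus enter the mean normalized counts and the fit. RNA was total RNA of dissected cortex, sequenced from directional libraries. The promoter and copy number of the transgene, the deleted part of Grn, litters, batches and dissection days are not in the labels. These can therefore not be told apart from genotype.

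Progranulin is a secreted glycoprotein that cells take up and cut into granulin peptides in the lysosome. Microglia and neurons are its main sources in brain. In people, mutation of a single copy leads to frontotemporal dementia, and loss of both causes a neuronal lysosomal storage disease. The comparison sets human progranulin on a mouse knockout background beside the loss of a single mouse copy. It asks how the cortex differs between these mutant models.

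The deposited values are a mean normalized count over all libraries, the log2 fold change and its standard error (SE), and p-values. A positive log2 fold change means a higher level in Grn-/-;GRNtg mice, the ± sign gives 1 SE, and a gene was called where the authors' adjusted p was under 0.05. No values per mouse are in the tables used here, so levels in single mice and the overlap of the groups cannot be given. The p-values set each log2 fold change against its SE in the authors' fit. They do not show the spread between single mice. In bulk tissue, fewer cells of a type and less RNA per cell cannot be told apart. Cortical neuron transcripts were plentiful, with mean normalized counts of 36092 for Slc17a7, the cortical vesicular glutamate transporter, and 79958 for Camk2a, the calcium-dependent kinase of forebrain excitatory neurons, in the authors' deposited table.

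The mouse gene itself comes first. It lies on the plus strand of chromosome 11, from 102430315 to 102437048 in GRCm38, and the authors' deposited table lists it at a mean normalized count of 784. Grn fell by 1.36 on the log2 scale (SE 0.0855, adjusted p = 5.2e-53) in the authors' deposited table, to 38.9% of its level in Grn+/- mice. Of all genes there it had the largest change and the smallest adjusted p. The labels do not say whether the counted reads lie in the deleted part. The submitters' processing notes name a mouse build, and whether reads of the human transgene were counted as mouse Grn was not tested. The remaining 38.9% is the deposited fold change at this gene written as a percentage, and cannot be read as mouse transcript alone. Whether the authors' fit drew fold changes towards 0 is not given. If it did, this percentage and those of the genes below would understate the changes. Against the same wild-type mice, Grn was lower by 2.02 (SE 0.0815, adjusted p = 5.8e-131) in Grn-/-;GRNtg and by 0.65 (SE 0.077, adjusted p = 2.9e-13) in Grn+/-, in the authors' deposited tables.

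Between the mutant groups 82 genes were called by the authors' deposited table, which is 0.467% of the genes; 56 rose and 26 fell in Grn-/-;GRNtg. Another 2 of the authors' deposited tables give 728 calls (4.87%) for Grn-/-;GRNtg against wild type and 917 calls (6.80%) for Grn+/- against wild type, over 14961 and 13482 genes. The 11369 genes with a mean normalized count of at least 100 held 39 of the 82 calls (0.343%), 17 higher (0.150%) and 22 lower (0.194%), going by the authors' deposited table. The 6193 genes under 100 held the other 43 (0.694%), 39 higher (0.630%) and 4 lower (0.0646%). Directions were thus close to even among well-measured genes and nearly all upward among genes with few reads. Over all genes the median log2 fold change was 0.00 and 50.8% of values were positive in the authors' deposited table. An unadjusted p under 0.05 was given to 1578 genes, or 8.99%.

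**Figure D1:**
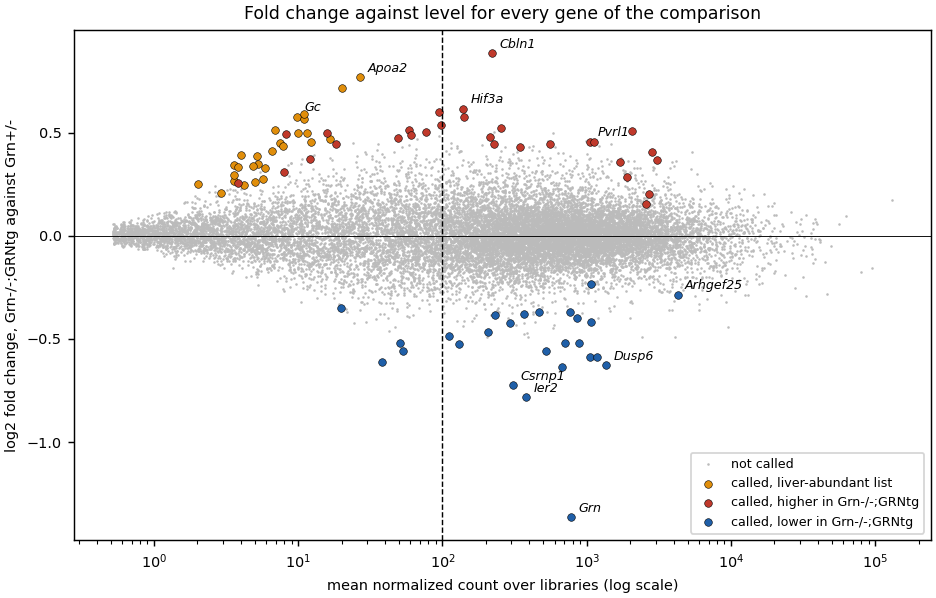
Each point is 1 gene, with the mean normalized count on a log axis and the log2 fold change of Grn-/-;GRNtg against Grn+/- on the vertical axis. Grn stands lowest at -1.36; called genes right of the dashed line at 100 lie on both sides of 0, while 39 of the 43 called genes left of it lie above 0, 27 of them from a list of liver-abundant genes.

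The called genes with at least 100 counts that fell include regulators that cells induce quickly after a stimulus and feed back on the ERK kinase cascade. Ier2 and Csrnp1, immediate early genes that encode nuclear proteins, fell by 0.78 (SE 0.136, adjusted p = 1.4e-05) and 0.73 (SE 0.128, adjusted p = 2.6e-05) in the authors' deposited table. These correspond to 58.1% and 60.5% of the Grn+/- level. Dusp6, a phosphatase that switches off ERK, fell by 0.63 (SE 0.115, adjusted p = 6.5e-05) in the authors' deposited table. Trib1, a pseudokinase that guides proteins to degradation, fell by 0.63 (SE 0.131, adjusted p = 0.0012) in the authors' deposited table. Dusp1, a nuclear phosphatase of stress-activated and ERK kinases, fell by 0.59 (SE 0.138, adjusted p = 0.0095) in the authors' deposited table. Arl4d, a small GTPase of the ARF family, fell by 0.56 (SE 0.131, adjusted p = 0.0098) in the authors' deposited table.

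Arl4d and Dusp1 are the called genes that fell whose RefSeq promoter window holds a full cyclic AMP response element, the site that CREB-type factors can bind. The sequences are shown because this element is known from activity-induced genes. Each is the 250 bases before the transcript start in GRCm38.p6, written 5′ to 3′ on the gene's strand, with the element in capitals. The Arl4d window lies at chr11:101665291-101665540 on the plus strand and the Dusp1 window at chr17:26508473-26508722 on the minus strand.
Arl4d: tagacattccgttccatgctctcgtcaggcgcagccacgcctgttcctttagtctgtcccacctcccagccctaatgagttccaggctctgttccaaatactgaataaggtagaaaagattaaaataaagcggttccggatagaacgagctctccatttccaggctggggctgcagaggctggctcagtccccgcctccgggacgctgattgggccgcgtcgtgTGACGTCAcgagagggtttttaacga
Dusp1: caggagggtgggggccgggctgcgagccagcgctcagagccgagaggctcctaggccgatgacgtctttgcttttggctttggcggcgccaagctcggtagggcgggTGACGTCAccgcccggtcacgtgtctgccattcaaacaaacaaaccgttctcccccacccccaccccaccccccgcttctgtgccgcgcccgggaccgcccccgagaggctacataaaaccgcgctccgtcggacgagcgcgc
The first base of the element stands 26 bases before the Arl4d start and 143 bases before the Dusp1 start. The letters searched were TGACGTCA, which read the same on both strands. Of the 39 called genes with at least 100 counts, 30 had a window of 300 bases, and Ier2 and Trib1 had no entry. The element was present for 2 of 17 such genes that fell and 0 of 13 that rose, beside 1.79% of all 32851 windows and 3.15% of the 13669 genes of the comparison with a window. The CArG box is bound by serum response factor and known from immediate early promoters. It was searched as the letters CCWWWWWWGG, with W for A or T, on both strands. The box was present for 0 of the 17 and for 1 of the 13, Hnrnpd, beside 1.61% of the genes of the comparison. Such matches describe letters in a window and do not show that a factor binds there.

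Other genes that fell have known roles in small GTPase signalling, adhesion, membrane traffic and metabolism. Arhgef25, an exchange factor that activates small GTPases, fell by 0.28 (SE 0.0652, adjusted p = 0.0078) with 4283 mean normalized counts in the authors' deposited table. Cdc42ep3, an effector of the GTPase Cdc42, fell by 0.47 (SE 0.111) and Itgb3, the integrin beta 3 chain, by 0.48 (SE 0.123) in the authors' deposited table. Slc9a9, a proton exchanger of endosomes, fell by 0.38 (SE 0.0997) and Osbpl5, a lipid transfer protein of membrane contact sites, by 0.37 (SE 0.0878) in the authors' deposited table. Bok, a BCL-2 family member, fell by 0.52 (SE 0.134), and Gpr153, an orphan G-protein-coupled receptor, also by 0.52 (SE 0.12), in the authors' deposited table. Hprt, on chromosome X, encodes the purine salvage enzyme that recycles hypoxanthine and guanine. It fell by 0.59 (SE 0.125, adjusted p = 0.0022) to 66.5% of the Grn+/- level in the authors' deposited table. Of 24 measured purine metabolism genes Hprt was the single call, and the list's median was 0.02. Fam13a fell by 0.42 (SE 0.083, adjusted p = 0.00034) in the authors' deposited table. The remaining calls in this direction were Pld5, Map6d1, which encodes a microtubule-binding protein, D1Ertd622e, 2810025M15Rik, Tmem14a and Ankrd45, with log2 fold changes from -0.53 to -0.23 in the authors' deposited table.

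The genes that rose are given by role, starting with proteins of synapses and cell contacts. Cbln1, a secreted organizer that bridges presynaptic neurexins and postsynaptic delta glutamate receptors, rose by 0.88 (SE 0.138, adjusted p = 4.1e-07) in the authors' deposited table, to 185% of the Grn+/- level. Pvrl1, which encodes the adhesion molecule nectin 1, rose by 0.46 (SE 0.0585, adjusted p = 5e-11) in the authors' deposited table, to 137%. Its SE was among the smaller ones, and its adjusted p was second to that of Grn in the authors' deposited table. Cadm1, a synaptic adhesion molecule of the same wider family, rose by 0.41 (SE 0.107, adjusted p = 0.034) in the authors' deposited table. Sstr4, a somatostatin receptor, rose by 0.45 (SE 0.112) and Kcnj2, an inward-rectifier potassium channel, by 0.48 (SE 0.126) in the authors' deposited table. C1ql2, a secreted organizer of mossy fibre synapses, rose by 0.50 (SE 0.124, adjusted p = 0.019) in the authors' deposited table, where its mean normalized count of 77.2 puts it under the split.

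Transcription regulators and RNA-binding proteins come next. Hif3a, a hypoxia-inducible factor subunit that glucocorticoids also induce, rose by 0.62 (SE 0.137, adjusted p = 0.005), to 153% of the Grn+/- level, in the authors' deposited table. Rreb1, a zinc finger factor of Ras signalling, rose by 0.51 (SE 0.122) and Etv1, an ETS factor of deep-layer cortical neurons, by 0.45 (SE 0.11) in the authors' deposited table. Smad3, a transducer of transforming growth factor beta, rose by 0.28 (SE 0.0768, adjusted p = 0.047) in the authors' deposited table. Hnrnpd, which binds AU-rich elements in messenger RNA, rose by 0.16 (SE 0.041, adjusted p = 0.034), the smallest change among all calls of the authors' deposited table. Secreted and surface proteins followed: Pcsk5, a proprotein convertase, rose by 0.53 (SE 0.13), Igfbp5, a binding protein of insulin-like growth factors, by 0.37 (SE 0.0993) and Adam15, a membrane metalloprotease, by 0.21 (SE 0.0509) in the authors' deposited table. Aloxe3, an epidermal lipoxygenase, rose by 0.58 (SE 0.127), and Chst8, a sulfotransferase, by 0.43 (SE 0.107), in the authors' deposited table. Prr36 (0.46 ± 0.115) and Lrrc16b (0.36 ± 0.0966), a regulator of actin capping, complete this group in the authors' deposited table.

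**Figure D2:**
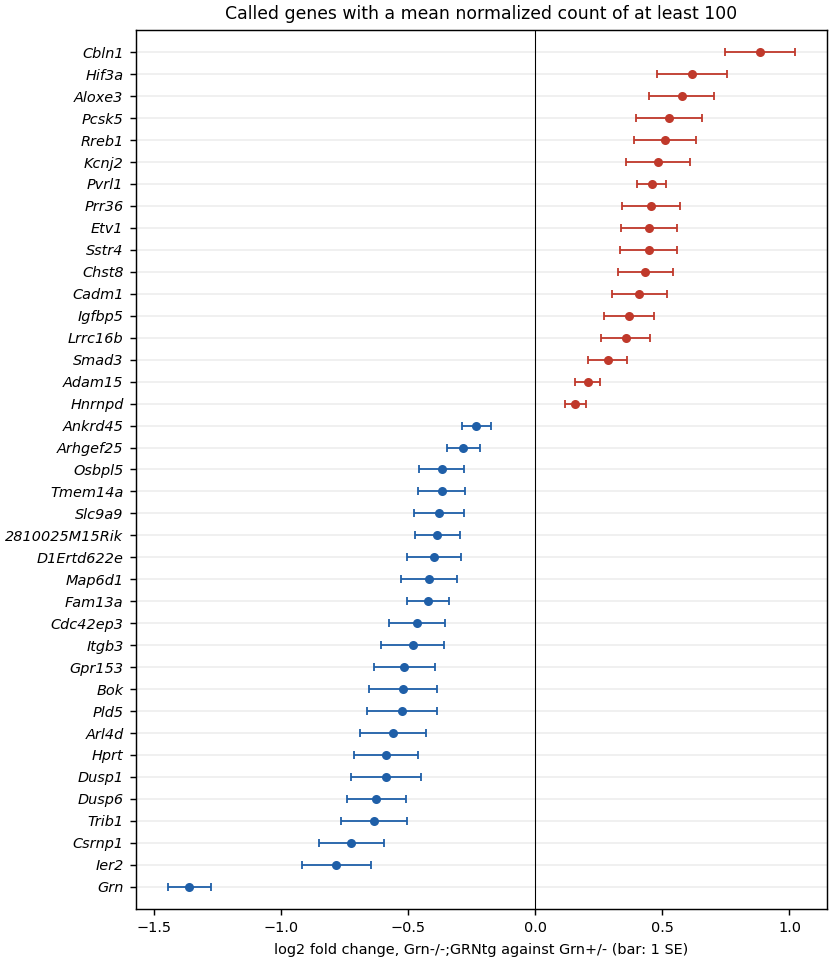
Log2 fold change of Grn-/-;GRNtg against Grn+/- for the 39 called genes with a mean normalized count of at least 100, with bars of 1 SE. The 17 genes that rose run from Hnrnpd at 0.16 to Cbln1 at 0.88 and the 22 that fell from Ankrd45 at -0.23 to Grn at -1.36.

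Several calls lay near the threshold. The last genes inside it in the authors' deposited table were Igfbp5, Smad3 and Lrrc16b, with adjusted p = 0.046, 0.047 and 0.049. Just outside, the authors' deposited table lists Isca1 (-0.24 ± 0.0667, adjusted p = 0.052) and Adamts2 (0.51 ± 0.138, adjusted p = 0.052). With each statistic divided by the robust spread of all well-measured genes, 1.15, the 39 calls became 9, of which 2 rose and 7 fell. These were Grn, Pvrl1, Cbln1, Ier2, Csrnp1, Dusp6, Fam13a, Trib1 and Hprt.

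Each mutant group was also compared with the same 5 wild-type mice, so the comparisons share mice and their values are set side by side only. For Ier2 the authors' deposited tables gave -0.75 ± 0.134 (adjusted p = 2e-05) in Grn-/-;GRNtg and 0.04 ± 0.134 (adjusted p = 0.92) in Grn+/-, each against wild type. Csrnp1 gave -0.66 ± 0.126 (adjusted p = 8.1e-05) and 0.07 ± 0.125 (adjusted p = 0.83), and Hprt -0.55 ± 0.128 (adjusted p = 0.0023) and 0.04 ± 0.128 (adjusted p = 0.91), in the authors' deposited tables. In these genes the Grn-/-;GRNtg mice stood away from wild type and the Grn+/- mice stood near it. Dusp6 had -0.73 ± 0.111 and -0.11 ± 0.111, and Trib1 had -0.89 ± 0.129 and -0.25 ± 0.128, in the same order in the authors' deposited tables. Of these values against wild type, those of Dusp6 and Trib1 in Grn-/-;GRNtg were called there (adjusted p = 1.1e-07 and 2.4e-08) and those in Grn+/- were not (adjusted p = 0.65 and 0.24), by the authors' deposited tables. For Hif3a the authors' deposited tables gave 0.93 ± 0.137 (adjusted p = 3.5e-08) and 0.31 ± 0.137 (adjusted p = 0.15).

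Pvrl1 showed another arrangement, with 0.04 ± 0.0548 (adjusted p = 0.71) in Grn-/-;GRNtg and -0.42 ± 0.0561 (adjusted p = 5.4e-10) in Grn+/-, against wild type in the authors' deposited tables. Its lower level thus lay in the Grn+/- group. Fam13a had -0.09 ± 0.0811 (adjusted p = 0.54) and 0.33 ± 0.0791 (adjusted p = 0.002), and Slc9a9 -0.01 ± 0.0969 (adjusted p = 0.97) and 0.37 ± 0.096 (adjusted p = 0.0055), in the authors' deposited tables. These genes were called in Grn+/-, above wild type, and not in Grn-/-;GRNtg. Cbln1 lay on both sides of wild type, at 0.51 ± 0.138 (adjusted p = 0.013) in Grn-/-;GRNtg and -0.38 ± 0.138 (adjusted p = 0.071) in Grn+/- in the authors' deposited tables. Gpr153 had -0.18 ± 0.117 and 0.33 ± 0.116, and neither was called (adjusted p = 0.37 and 0.057 in the authors' deposited tables).

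**Figure D3:**
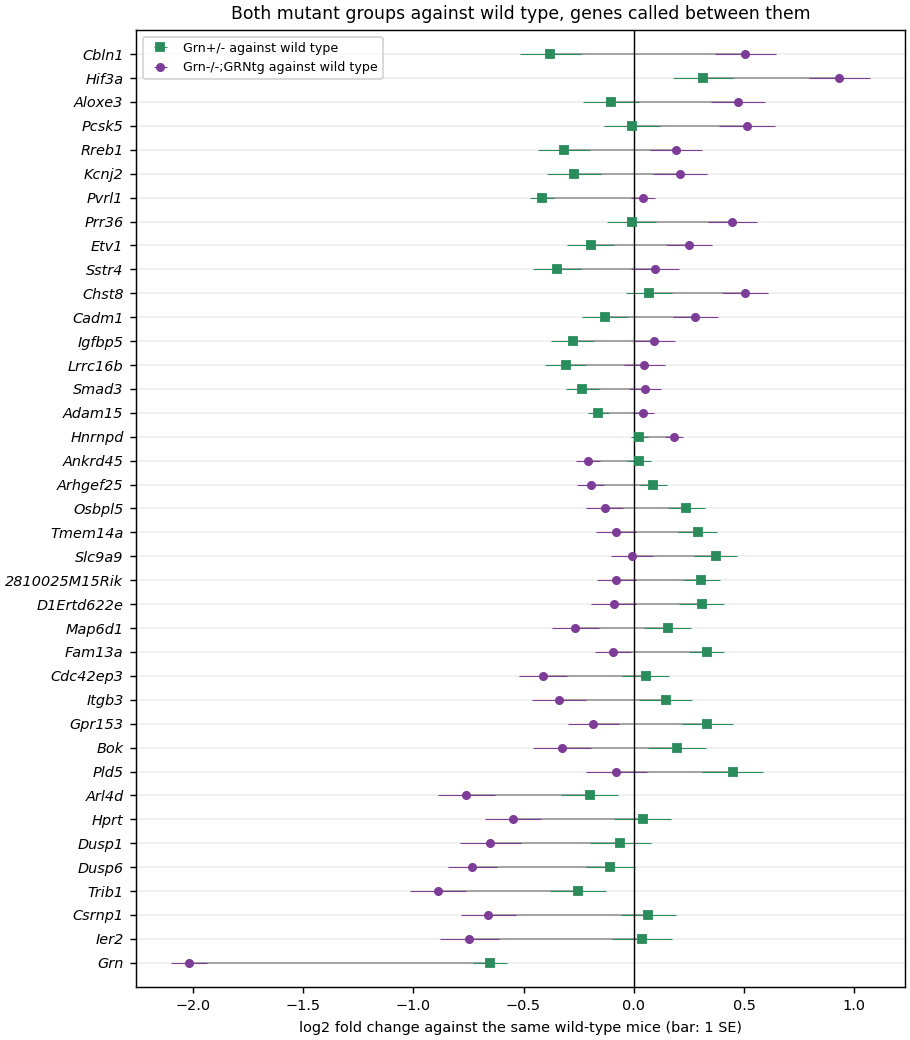
The 39 called genes with at least 100 counts, each with its log2 fold change against the same wild-type mice in Grn+/- (squares) and Grn-/-;GRNtg (circles), bars 1 SE; the line between the symbols is the difference that was tested. Ier2, Csrnp1 and Hprt have their squares near 0, while Pvrl1, Fam13a and Slc9a9 have their circles near 0.

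Immediate early genes, which neurons transcribe within minutes of activity, were described from a list of 31 measured genes. Only Ier2 and Csrnp1 were called, both lower, which is 6.45% of the list beside 0.467% of all genes. The median log2 fold change was -0.15 beside 0.00 over all genes of the authors' deposited table. At an unadjusted p under 0.05 stood 11 lower and 2 higher members, and 11 of the 31 had positive values. Nr4a1, a nuclear receptor of the early response, had -0.49 ± 0.137 (adjusted p = 0.061) and Junb, a subunit of the AP-1 factor, -0.49 ± 0.138 (adjusted p = 0.063) in the authors' deposited table. Of 18 ERK feedback genes, Dusp6, Trib1 and Dusp1 fell and Etv1 rose, or 22.2% called, with a median of -0.07. Positive values were held by 8 of the 18, and 7 lower and 1 higher had an unadjusted p under 0.05. Spry2, an inhibitor of receptor tyrosine kinase signalling, had -0.23 ± 0.0811 (adjusted p = 0.22) in the authors' deposited table. Among 18 circadian clock genes none was called, with a median of -0.04 and 3 lower and 0 higher at an unadjusted p under 0.05 in the authors' deposited table. The value nearest to a call in the authors' deposited table was -0.36 ± 0.131 (adjusted p = 0.26) for Per1, a clock gene that also responds to activity and to glucocorticoids. Of 16 glucocorticoid-responsive genes Hif3a rose, and 10 had positive values with a median of 0.13. Fkbp5, a chaperone of the glucocorticoid receptor, had 0.31 ± 0.115 (adjusted p = 0.28) in the authors' deposited table.

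Lysosomal and progranulin-linked genes were next. None of 45 lysosome genes was called in the authors' deposited table, with 3 lower and 1 higher at an unadjusted p under 0.05 and a median of -0.03. With 0.467% of all genes called, a list of this size would often hold no call. The absence of calls does not show that these genes were unchanged. Ctsb, the protease cathepsin B, had -0.22 ± 0.072 (adjusted p = 0.17), and Asah1, acid ceramidase, -0.19 ± 0.0633 (adjusted p = 0.18), in the authors' deposited table. None of 18 subunits of the vacuolar proton pump was called or had an unadjusted p under 0.05, and their median was 0.00. Of 18 measured genes of progranulin, its receptors and its trafficking partners, Grn was the only call. Tnfrsf25, a receptor of the tumour necrosis factor family, had -0.36 ± 0.137 (adjusted p = 0.3), and Tmem106b, a lysosomal membrane protein and modifier of frontotemporal dementia, 0.11 ± 0.0851 (adjusted p = 0.78), in the authors' deposited table. Among 19 genes of frontotemporal dementia and amyotrophic lateral sclerosis, Grn was again the only call.

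Glial and immune lists gave no calls in the authors' deposited table, beside 0.467% of all genes called and 8.99% with an unadjusted p under 0.05. At so low a called share most lists of this size would hold no call. The absence of calls thus does not show that these genes were unchanged. The 20 homeostatic microglia genes had a median of 0.02 with 0 members at an unadjusted p under 0.05, and the 26 disease-associated microglia genes a median of -0.05 with 3 such members. The 20 complement genes had a median of 0.04, with 1 higher and 1 lower at an unadjusted p under 0.05, and the 16 antigen presentation genes 0.02, with 1 higher and 3 lower. Type I interferon response genes had positive values in 4 of 36 members and a median of -0.13, with 9 lower and 0 higher at an unadjusted p under 0.05 in the authors' deposited table. Of the 36, 9 had a mean normalized count of at least 100. Gbp3, an interferon-induced GTPase, had -0.36 ± 0.12 (adjusted p = 0.18) in the authors' deposited table. The 19 astrocyte markers had a median of 0.03 and 0 members at an unadjusted p under 0.05, and the 24 reactive astrocyte genes -0.03 and 2 such members. All 21 myelin genes had values under 0, none at an unadjusted p under 0.05, with a median of -0.06 in the authors' deposited table. Oligodendrocyte precursor genes had positive values in 13 of 16 members and a median of 0.15, with 7 higher and 0 lower at an unadjusted p under 0.05. Cspg4, the NG2 proteoglycan, had 0.27 ± 0.0766 (adjusted p = 0.07) and Matn4, a matrix protein, 0.40 ± 0.115 (adjusted p = 0.074) in the authors' deposited table. Cspg4 is also a member of the mural cell list, whose median was -0.10 over 15 genes, and 18 endothelial markers had a median of -0.08. At an unadjusted p under 0.05 the mural list had 1 higher and 1 lower member and the endothelial list 1 lower.

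Neuronal lists held few calls in number, beside 0.467% of all genes called and 8.99% with an unadjusted p under 0.05. Calls made up 4.35% of the excitatory markers, 7.14% of the synaptic organizer genes and 20% of the nectin adhesion genes. They made up 0% of the inhibitory neuron and receptor subunit lists. These lists were chosen with earlier results known, so the shares describe and do not test. Of 23 excitatory cortical neuron markers Etv1 rose, and 6 lower and 2 higher members had an unadjusted p under 0.05, with a median of -0.05 in the authors' deposited table. For Rgs4, a regulator of G-protein signalling, the authors' deposited table gives -0.36 ± 0.116 (adjusted p = 0.16), and for Camk2a -0.18 ± 0.0582 (adjusted p = 0.18). The 26 inhibitory neuron genes had no call and a median of 0.02, with 2 higher and 0 lower at an unadjusted p under 0.05. Synaptic organizer genes had positive values in 22 of 28 members and a median of 0.13, with Cbln1 and C1ql2 called. Of these members 8 higher and 1 lower had an unadjusted p under 0.05. Lrrtm1, a postsynaptic partner of neurexins, had 0.31 ± 0.123 (adjusted p = 0.34) in the authors' deposited table. Among 10 nectin adhesion genes Pvrl1 and Cadm1 rose, while Pvrl3, which encodes nectin 3, had -0.37 ± 0.104 (adjusted p = 0.063) in the authors' deposited table. The 24 glutamate receptor subunits and 16 GABA receptor subunits had no call, with medians of 0.09 and -0.01. At an unadjusted p under 0.05 they had 4 higher and 1 lower, and 1 higher and 1 lower.

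Markers of tissue next to the cortex were listed because a dissection can hold it, and their part in the neuronal results was not tested. Shares over all genes were 0.467% called and 8.99% with an unadjusted p under 0.05. Striatal markers had positive values in 20 of 25 members, a median of 0.14 and no call, with 4 higher and 0 lower at an unadjusted p under 0.05 in the authors' deposited table. Gpr6, a receptor of striatal projection neurons, had 0.32 ± 0.113 (adjusted p = 0.24) in the authors' deposited table. Hippocampal markers had positive values in 15 of 21 members and a median of 0.14, with C1ql2 called. At an unadjusted p under 0.05 they had 4 higher and 2 lower members. Of 20 thalamic markers Cbln1 was the call, with a median of 0.01 in the authors' deposited table. Positive values were held by 10 of them, and 2 higher and 1 lower had an unadjusted p under 0.05. Choroid plexus markers had no call in 6 measured genes of 14 listed and a median of -0.06, and the 24 leptomeningeal fibroblast markers none with a median of 0.05. Blood cell genes had no call in 9 measured genes of 15 listed. At an unadjusted p under 0.05 stood 0 choroid plexus, 1 leptomeningeal and 0 blood cell genes.

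Housekeeping groups had medians near 0 in the authors' deposited table. The medians were -0.05 for 60 nuclear oxidative phosphorylation genes, 0.02 for 51 cytosolic ribosomal protein genes and -0.02 for 31 proteasome subunits, none called. The 24 endoplasmic reticulum stress genes, 20 cytosolic heat shock genes and 24 cholesterol synthesis genes had medians of -0.01, -0.04 and -0.04, none called. Positive values were held by 17 of the 60 oxidative phosphorylation genes, 33 of the 51 ribosomal genes and 12 of the 31 proteasome subunits. For the endoplasmic reticulum stress, heat shock and cholesterol lists these were 11 of 24, 5 of 20 and 9 of 24. Over all genes 50.8% of values were positive, 0.467% of genes were called and 8.99% had an unadjusted p under 0.05. At an unadjusted p under 0.05 stood 0 ribosomal, 0 heat shock and 1 proteasome gene, and 2 genes each of the oxidative phosphorylation, endoplasmic reticulum stress and cholesterol lists, all 7 lower. Of 11 nuclear-retained noncoding RNAs, whose level can follow the share of nuclear RNA in a library, none was called, with a median of 0.06 and 3 higher and 0 lower at an unadjusted p under 0.05. Mirg, an imprinted host transcript of microRNAs, had 0.31 ± 0.0896 (adjusted p = 0.077) in the authors' deposited table.

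**Figure D4:**
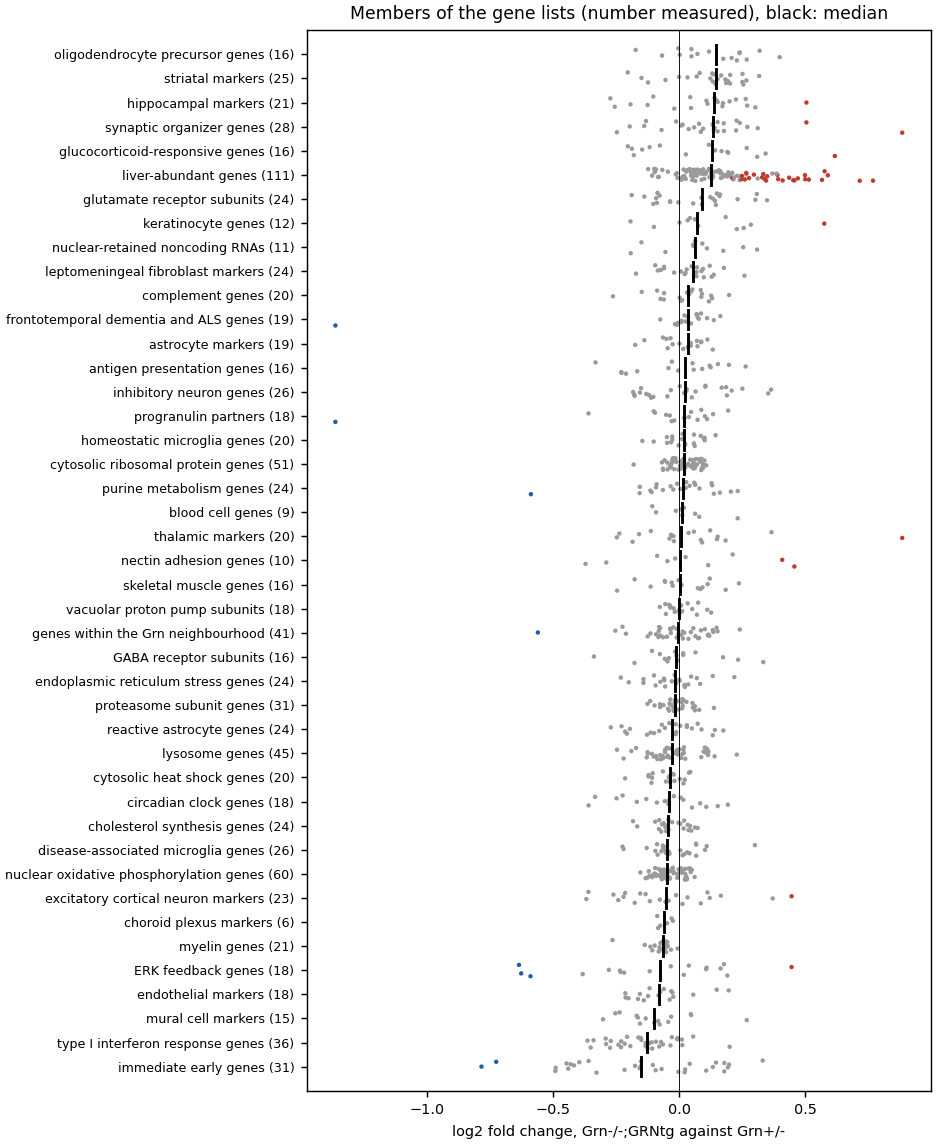
Log2 fold change of Grn-/-;GRNtg against Grn+/- for every measured member of the 43 gene lists, 1 row per list in order of the median (black bar), with called genes in red where higher and blue where lower. Medians run from -0.15 for immediate early genes to 0.15 for oligodendrocyte precursor genes, and most lists hold no coloured point.

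Among genes under 100 counts, most that rose are genes that the liver transcribes strongly, such as those of plasma proteins and apolipoproteins. Of the 39 that rose in the authors' deposited table, 27 were on a list of liver-abundant genes, of which 111 of 126 were measured. Gc, the vitamin D binding protein of plasma, rose by 0.58 (SE 0.0888, adjusted p = 3.5e-07) in the authors' deposited table, with a mean normalized count of 9.84. Apoa1 and Apoa2, the main proteins of high-density lipoprotein, rose by 0.72 (SE 0.111) and 0.77 (SE 0.128) at counts of 20.0 and 26.8 in the authors' deposited table. Ahsg, a plasma glycoprotein of the fetuin family, rose by 0.57 (SE 0.0876) and Fgb, the fibrinogen beta chain, by 0.51 (SE 0.0855), in the authors' deposited table. Adh1, an alcohol dehydrogenase, rose by 0.59 (SE 0.114), and of the apolipoproteins Apob rose by 0.41 (SE 0.0801) and Apoa5 by 0.34 (SE 0.0718), in the authors' deposited table. Of other liver enzymes, Mat1a, which makes S-adenosylmethionine, rose by 0.50 (SE 0.0887) and Pck1, of gluconeogenesis, by 0.39 (SE 0.0796) in the authors' deposited table. Serpina1b and Serpina1c (0.50 and 0.39 on the log2 scale) are near-identical copies that share reads, so their separate values are uncertain.

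Called liver-abundant genes had mean normalized counts from 2.03 to 26.8 in the authors' deposited table. Of the 102 list members under 100 counts, 94 had positive values and 61 an unadjusted p under 0.05, and the median log2 fold change was 0.14. The 9 members with at least 100 counts had no call, 4 positive values and a median of -0.08. Alb, serum albumin, chosen here after its value was seen, is listed in the authors' deposited table with 0.06 ± 0.033 (adjusted p = 0.56) and a mean normalized count of 164. Its SE is the smallest of the genes with at least 100 counts there, beside a median SE of 0.114 at counts of 100 to 300. Whether so small an SE means a precise fold change was not tested. Without values per mouse it cannot be seen in how many mice these reads occur. With the liver-abundant genes left out before adjustment, 10 of the genes under 100 counts and 29 of the genes with at least 100 counts were called. In the whole, 39 calls were then left, 18 higher and 21 lower.

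The SE of genes with few reads did not grow as reads ran out. It reached a ceiling of 0.138, and its median was 0.135 for counts of 30 to 100 but 0.0919 for counts of 3 to 10 and 0.0355 for counts under 1 in the authors' deposited table. A small SE at few reads therefore does not mean a precise fold change. Counts of 3 to 10 held 21 calls, all higher, or 1.62% of their genes. Among well-measured genes the median SE fell from 0.114 at counts of 100 to 300 to 0.0736 at 1000 to 3000 in the authors' deposited table.

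**Figure D5:**
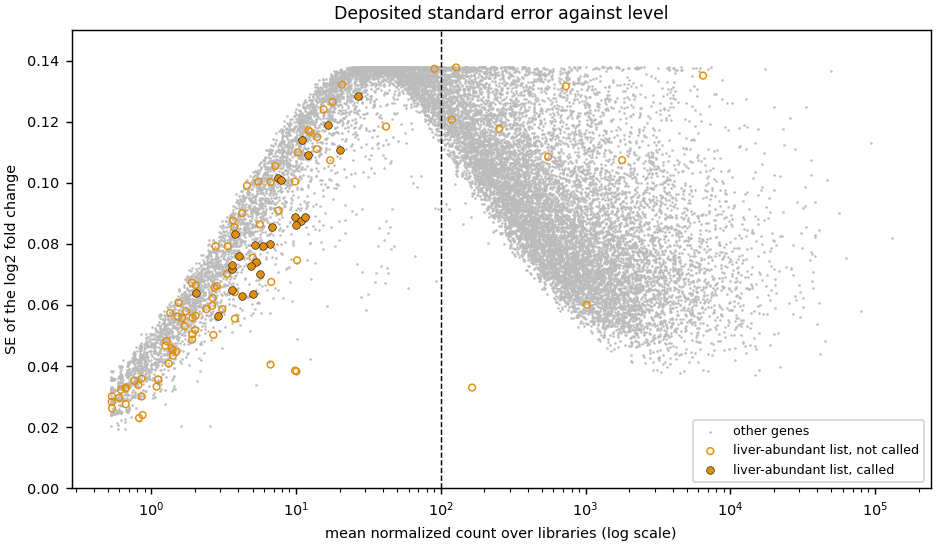
Deposited SE of the log2 fold change against the mean normalized count on a log axis, 1 point per gene, with liver-abundant genes as open circles or, where called, filled circles. Typical SEs rise towards the ceiling of 0.138 and fall again beyond the dashed line at 100, where some genes still reach the ceiling. Every filled circle lies left of that line, at counts from 2.03 to 26.8.

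The other genes under 100 counts that rose were 12 in number. Pigr, the receptor that carries immunoglobulin A across epithelia (0.26 ± 0.0652), H2-Q10, a class I molecule of liver and plasma (0.31 ± 0.0768), and Acaa1b, a peroxisomal thiolase (0.44 ± 0.116), are in the authors' deposited table but not on the list. Stab2, a scavenger receptor of liver sinusoids, also not on the list, had 0.50 ± 0.129 in the authors' deposited table. Fndc1 rose by 0.60 (SE 0.138), Tenm1, a teneurin adhesion molecule on chromosome X, by 0.54 (SE 0.138) and Qrfpr, a neuropeptide receptor, by 0.51 (SE 0.137) in the authors' deposited table. Kcnk10, a leak potassium channel, rose by 0.49 (SE 0.132) and Prph, the intermediate filament peripherin, by 0.47 (SE 0.123) in the authors' deposited table. Krt2, a keratin of skin, rose by 0.37 (SE 0.0988) in the authors' deposited table. It is not on the list of 12 measured keratinocyte genes, of which Aloxe3 was called and 10 had positive values, with a median of 0.07. Arhgap27os3, whose name marks it as an opposite-strand transcript, rose by 0.50 (SE 0.115) in the authors' deposited table. The strand setting of the counting is not given, so its reads cannot be told apart from those of its sense partner. That partner, Arhgap27, had a value of the other sign, -0.22 ± 0.0852 (adjusted p = 0.29), in the authors' deposited table. The 4 genes that fell were 1110046J04Rik (-0.61 ± 0.138), Mycbpap (-0.56 ± 0.138), Fam198b (-0.52 ± 0.138) and A230065H16Rik (-0.35 ± 0.0875) in the authors' deposited table.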

How the data were processed

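Directional RNA libraries from the cortex of 13 mice, all male and 18 months old, were sequenced, per the labels' protocols. The submitters' processing notes name mm10, R 4.1.2 and DESeq2 1.34.0. For the aligner, read counter, annotation and strand setting: not given in the sources used here. The authors' deposited tables hold no values per mouse. Per the file headers they give the mean normalized count (a signal averaged over libraries), the log2 fold change, its SE, the Wald statistic (a score) and p-values, raw and adjusted. Depth per mouse is unknown. The mean normalized counts are the same in the 3 deposited tables. No normalization step is named in the labels. Whether a prior drew fold changes towards 0 was likewise not given in the sources used here. The SE had a ceiling of 0.138 and a median of 0.0355 at counts under 1, and whether a prior gave this was not tested. With a prior, the fold changes of genes with few reads, such as the called liver-abundant genes, would be understated. The ceiling is reached at high counts too, so fold changes of genes near it (such as Cbln1, Dusp1 and Pld5) would then be understated as well.

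No test was added: calls use the authors' Wald test, adjusted by Benjamini-Hochberg, at a threshold of 0.05. Division of the deposited log2 fold change by its SE returned the statistic in 17562 rows, and the adjustment returned the deposited p-values in 17564 rows. The row of reads assigned to no gene held 17.0% of the summed mean normalized counts and that of ambiguous reads 0.606%, and both were dropped. Genes were split at a mean normalized count of 100. The 43 lists held 1118 entries, of which 1071 were measured. They are described by counts and medians, with no set test. Members and lists were chosen with earlier results of these data known. Named are Grn, every call with at least 100 counts, under 100 the 12 higher calls with the smallest adjusted p and all 4 lower calls (the rule allowed 12), up to 4 members of a list with the smallest p, and the 3 genes on either side of the threshold, of which 1 is not reported here. Other names (Alb, Slc17a7, Spry2 and the remaining calls under 100 counts) and Tmem106b were chosen after their values were seen. Positions are from GENCODE M21 (GRCm38, the assembly that mm10 names), found for 98.8% of genes, and promoter sequences from RefSeq (GRCm38.p6). Python 3.11.15, numpy 2.4.6, pandas 2.3.3, scipy 1.17.1 and matplotlib 3.10.9 were used, and the adjustments were tested on simulated data.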

Additional observations from a re-analysis of the deposited data

How the results depend on the processing

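The alternatives change thresholds, p-values, SEs or the genes tested, and none of these but centring, a negligible shift, can alter the sign of a deposited fold change. Grn kept its call in all of them, at -1.36 on the log2 scale; its largest adjusted p was 1.5e-39, with the statistic divided by its robust spread. The 82 calls became 35 at a threshold of 0.01 and 159 at 0.1. They became 36 when adjusted over genes with at least 100 counts, an alternative that gives no value for genes under 100, and 43 over genes in all 3 tables. Benjamini-Yekutieli adjustment left 24, the robust spread 23, and an SE raised for few reads 51. Without liver-abundant genes 39 were left. The calls with at least 100 counts went from 39 to 16 at 0.01, 102 at 0.1, 10 with Benjamini-Yekutieli adjustment and 9 with the robust spread. Without liver-abundant genes 29 of them were left. The 10 lost, at adjusted p from 0.053 to 0.073, were Kcnj2, Pld5, Hnrnpd, Cadm1, Slc9a9, D1Ertd622e, Map6d1, Igfbp5, Smad3 and Lrrc16b. The calls under 100 counts went from 43 to 19 at 0.01, 7 over genes in all 3 tables, which lack most genes with few reads, 14 with Benjamini-Yekutieli adjustment, 14 with the robust spread, 17 with the raised SE and 10 without liver-abundant genes. The raised SE (3532 genes) assumes that an SE cannot fall with fewer reads, which the deposited SE did. It leaves the fold changes as deposited. It therefore cannot tell weak calls from fold changes that were drawn towards 0 together with their SE. The cause of the changed counts was not tested in this or the other settings. Centring the fold changes, a minimum absolute log2 fold change of 0.3 and splits at 50 and 200 kept the totals of calls within 1.5 times. Of the 4 lower calls under 100 counts, 2 lay under a split at 50, and a split at 200 had 6. Adjustment over genes alone, an alternative chosen after seeing the data, kept all 82 calls. Leaving out each mouse was not run, because the tables hold no values per mouse. No paired analysis was possible because the tables hold no values per mouse.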

Other observations

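Called genes lay near Grn on chromosome 11. The windows below were chosen after the values were seen, so they describe and do not test. Within 1 Mb on either side 2 of 61 genes beside Grn were called in the authors' deposited table, or 3.28%, within 3 Mb 3 of 135 (2.22%), within 5 Mb 3 of 228 (1.32%), within 10 Mb 5 of 327 (1.53%), and on the whole chromosome 6 of 1417 (0.423%), close to the 0.467% over all genes. Counted from the nearer end of Grn, the nearest was Arl4d at -0.762 Mb, followed by Arhgap27os3 at 0.908 Mb and Itgb3 at 2.17 Mb. Mycbpap lay at -7.91 Mb and Kcnj2 at 8.63 Mb. The direction differed among them: Arl4d, Itgb3 and Mycbpap fell, and Arhgap27os3 and Kcnj2 rose. Against the same wild-type mice, Arl4d had -0.76 ± 0.129 (adjusted p = 3.9e-06) in Grn-/-;GRNtg and -0.20 ± 0.128 (adjusted p = 0.39) in Grn+/- in the authors' deposited tables. Of 41 measured genes on the list of the Grn neighbourhood 20 had positive values, with a median of 0.00. No strain background is given in the labels.

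Skeletal muscle genes, listed as a sign of other tissue, had no call in 16 measured genes, 1 higher and 1 lower at an unadjusted p under 0.05, and a median of 0.00 in the authors' deposited table.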
